A study of Mus musculus with 11 samples.

Results

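The T cells and natural killer (NK) cells that came along with a preparation of brain blood vessels from CADASIL mice and control mice are described here. CADASIL is a hereditary disease of small brain arteries caused by changes in the receptor NOTCH3. The cells were chosen by their counts of unique molecular identifiers (UMIs, one per captured RNA molecule). A barcode, the tag of one droplet, was kept if it showed 500 genes or more and no more than 10% of its UMIs were mitochondrial. It then had to hold at least 3 UMIs over Cd3e, Cd3d, Cd3g, Nkg7 and Klrd1, with at least 2 of these 5 genes detected. Barcodes with any UMI of the B-cell gene Cd79a, more than 3 UMIs of the endothelial genes Cldn5 and Flt1, or more than 1 UMI of the microglial genes P2ry12 and Cx3cr1 were left out. Of 61625 barcodes kept from 66658 deposited, 281 met these conditions (0.456%). Among them, 226 with at least 2 UMIs over Cd3e, Cd3d and Cd3g were taken as T cells, 51 with 0 such UMIs as NK cells, and 4 with 1 such UMI belonged to neither class.

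Single-cell RNA sequencing with 3′ UMI counts was done on 11 libraries, one per untreated mouse. The 6 CADASIL mice carried human NOTCH3 with the R182C change (R182C-TgN3, line Tg350 in the sample titles), and the 5 control mice carried human wild-type NOTCH3 (WT-TgN3, line Tg100), so a human NOTCH3 transgene was present in both groups. R182C-TgN3 mice 1, 2 and 3 were 9 months old and mice 4, 5 and 6 were 6 months old, while WT-TgN3 mice 1, 2 and 3 were 6 months old and mice 4 and 5 were 9 months old. Mice 2 and 4 of each genotype were males and all others were females. The labels give 4 batches: R182C-TgN3 1 and 2 with WT-TgN3 4 and 5 in batch 1, R182C-TgN3 3 by itself in batch 2, R182C-TgN3 4 and 5 with WT-TgN3 1 and 2 in batch 3, and R182C-TgN3 6 with WT-TgN3 3 in batch 4. Vessel fragments had been pulled from digested brain with beads against CD31, an endothelial surface protein, before they were digested again to single cells. The lymphocytes therefore passed a selection for vessels, and cells that were in the blood, at the vessel wall or in the tissue cannot be told apart. The transgene itself was read at 16.3 to 39.9 UMIs per 1000000 UMIs of the library (CPM) in R182C-TgN3 mice, median 28.7, and at 2.50 to 9.76 CPM in WT-TgN3 mice, median 6.70, so the amount of transgene RNA and the R182C change cannot be told apart in any comparison of the genotypes. T and NK cells held 6 NOTCH3 UMIs in R182C-TgN3 mice, in 2 T cells, and 0 in WT-TgN3 mice.

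T cells recognise peptide or lipid antigens through a rearranged T cell receptor, whose chains signal through the CD3 subunits and the zeta chain. NK cells have no rearranged receptor and read instead a balance of activating and inhibitory receptors, many of them lectin-like proteins of the Klr families, and kill with perforin and granzymes. Both are rare in the healthy brain, where they are found in vessels, meninges and choroid plexus and, as resident memory cells, in small numbers in the tissue.

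The genes that defined the classes are given as a description only, since the choice of cells fixed them. In T cells summed per mouse, Cd3g had 374 CPM in the lowest of the 11 mice, a median of 660 CPM and 904 CPM in the highest. Cd3d ranged from 420 to 799 CPM with a median of 583, and Cd3e from 214 to 624 CPM with a median of 428. All of the Cd3 genes were thus seen in the T cells of every mouse. In NK cells Cd3e, Cd3d and Cd3g were at 0 by definition, while Nkg7 (granule membrane protein) ranged from 631 to 1516 CPM, median 1195, and Klrd1 (CD94, a partner chain of NK receptors) from 533 to 1974 CPM, median 860. T cells also carried Nkg7 (26.2 to 748 CPM, median 206) and Klrd1 (52.5 to 197 CPM, median 99.8), and 38.1% and 27.4% of T cells had a UMI of them. The levels of Nkg7 in T cells did not reach the range of NK cells except at their upper end.

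At the edge of the gate, 14 cells had a sum of 3 UMIs over the 5 genes and 16 a sum of 4, while 6 barcodes that met all other conditions had a sum of 2. A further 40 barcodes had at least 3 UMIs of 1 gene only, 3 were left out for Cd79a, 27 for the endothelial limit and 17 for the microglial limit, and 1 of 5033 barcodes that failed the gene or mitochondrial filter met the rest of the gate. Of the 281 cells, 62 had at least 1 Cldn5 or Flt1 UMI and 49 at least 1 P2ry12 or Cx3cr1 UMI. The barcodes of 6 T or NK cells also occurred in another library, in 0 cases as a T or NK cell there.

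The label was set against markers that the rule did not use, since the Cd3 genes, Nkg7 and Klrd1 were fixed by it. The other 5 T-cell markers (Trac, Trbc2, Cd2, Lck and Lat) summed to 1752 CPM in T cells, 713 CPM in NK cells and 279 CPM in B cells. The other 5 NK-cell markers (Ncr1, Klrb1c, Klre1, Klrk1 and Eomes) summed to 2476 CPM in NK cells, 145 CPM in T cells and 0 CPM in B cells. Eomes was the lowest of these in NK cells, at 77.6 CPM. It had 0 UMIs in the NK cells of R182C-TgN3 1 and WT-TgN3 5, and was seen in 0 of the 31 NK cells with an Itga1 or Cxcr6 UMI. The rule by itself does not tell NK cells from other innate lymphoid cells that carry Nkg7 and Klrd1, so the name NK cells stands for the cells the rule took. Markers of other cells are given without the genes that the rule limited. Of 6 B-cell markers T cells showed 4, with 111 CPM in all, and NK cells 2, with 166 CPM, and Ly6d was at 0 in both. Of 6 perivascular macrophage markers, T cells showed 1, at 0.867 CPM, and NK cells 0. Endothelial markers summed to 266 CPM in T cells and 152 CPM in NK cells, with Pecam1 (CD31, the bead target, which leukocytes also carry) the highest at 189 and 116 CPM. Microglial markers summed to 492 and 268 CPM. S100a8, S100a9 and Retnlg, the neutrophil genes, were at 0 in both classes. Genes of mural cells, the smooth muscle cells and pericytes of vessels, stood at 463 CPM in T cells and 653 CPM in NK cells, and nearly all of this came from 3 cells. 2 T cells held 469 of 480 UMIs of Acta2, Tagln and Myh11, and 1 NK cell held 156 of 160.

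Free RNA of the lymphocyte genes was scarce. Among 37060 barcodes with at least 10 UMIs of Cldn5 and Flt1 (endothelial; median depth 5020.5 UMIs), 0.0540% had a Cd3e UMI and 0.103% a Klrd1 UMI. Among 12720 barcodes with at least 5 UMIs of P2ry12 and Cx3cr1 (microglial; median depth 5395.5 UMIs), 0.369% had a Cd3d UMI and 1.65% a Klrd1 UMI. T cells had a median of 5050 UMIs and 1782.5 genes, and NK cells 5218 UMIs and 2145 genes, so the classes were read about as deeply as the other cells (5029 UMIs over all kept barcodes). T cells together held 1153244 UMIs and NK cells 283508. The 11 libraries held 17550806 to 64215050 UMIs.

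T and NK cells were found in every mouse. Their number was 18, 19, 45, 11, 8 and 31 in R182C-TgN3 mice 1 to 6 and 16, 21, 53, 12 and 47 in WT-TgN3 mice 1 to 5. As a share of kept barcodes this was 0.182% to 0.671% in the R182C-TgN3 mice and 0.301% to 0.841% in the WT-TgN3 mice. The ranges overlapped for most of their length, and the means, 0.392% ± 0.196 (SD, n = 6) and 0.510% ± 0.237 (SD, n = 5), differed by -0.118 percentage points (2-sided exact permutation test over 462 splits, p = 0.385; 0.642 after Benjamini-Hochberg adjustment over 5 tests of shares). Within batches 1, 3 and 4 the difference was -0.170, -0.115 and -0.298, a mean of -0.194 (exact permutation within batches, p = 0.167), and batch 2 held 1 genotype only. T cells made up 0.121%, 0.386%, 0.656%, 0.187%, 0.235% and 0.456% of barcodes in the R182C-TgN3 mice and 0.251%, 0.275%, 0.635%, 0.226% and 0.521% in the WT-TgN3 mice. The genotypes overlapped across their whole range, with a difference of -0.0413 percentage points (exact permutation test, p = 0.721, adjusted p = 0.721). Within batches the T-cell difference was larger and of 1 sign, at -0.120, -0.0522 and -0.179 in batches 1, 3 and 4, a mean of -0.117 (exact permutation within batches, p = 0.194). At 9 months the share of T and NK cells had a median of 0.458% in 3 R182C-TgN3 mice and 0.491% in 2 WT-TgN3 mice, and at 6 months 0.269% and 0.365% in 3 mice each.

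The share of NK cells had a lower mean in R182C-TgN3 mice, with an adjusted p just above 0.05. Their numbers were 6, 3, 1, 2, 1 and 5 in the R182C-TgN3 mice and 4, 5, 12, 3 and 9 in the WT-TgN3 mice, which is 0.0607%, 0.0724%, 0.0149%, 0.0415%, 0.0336% and 0.0876% of barcodes against 0.0913%, 0.0860%, 0.190%, 0.0753% and 0.130%. Only R182C-TgN3 6 reached into the range of the WT-TgN3 mice, where it lay above mice 2 and 4. The means were 0.0518% ± 0.0268 (SD, n = 6) and 0.115% ± 0.0472 (SD, n = 5), with a difference of -0.0628 percentage points (exact permutation test, p = 0.0108; adjusted p = 0.0541 over the 5 tests). Within batches the difference was -0.0362 in batch 1, -0.0511 in batch 3 and -0.103 in batch 4, a mean of -0.0634 (exact permutation within batches, p = 0.0278, the smallest p that these 72 permutations can give). In cells with 0 UMIs of Cldn5, Flt1, P2ry12 and Cx3cr1, the difference shrank to -0.0195 percentage points (exact permutation test, p = 0.294), and when every barcode was thinned to 1000 UMIs before the gate, to -0.0149 (p = 0.314). The first of these gates left 17 NK cells of R182C-TgN3 mice and 20 of WT-TgN3 mice, and the second 6 and 8. The counts behind this comparison are small, 18 NK cells in 6 mice against 33 in 5 mice.

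**Figure D1:**
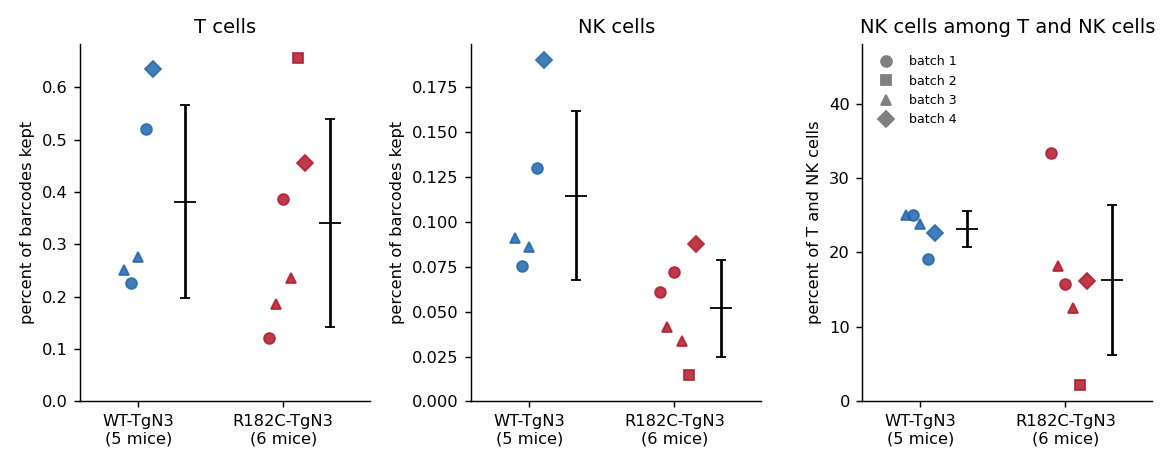
Share of T cells and of NK cells (both as percent of kept barcodes, y axis) and of NK cells among T and NK cells (percent) in each of 5 WT-TgN3 and 6 R182C-TgN3 mice (x axis). Each point is 1 mouse, its shape gives the batch, and the bar is the mean with SD. T-cell shares overlap between the genotypes, and 5 of 6 R182C-TgN3 mice lie below all WT-TgN3 mice for the share of NK cells.

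Among T and NK cells, the NK cells made up 33.3%, 15.8%, 2.22%, 18.2%, 12.5% and 16.1% in R182C-TgN3 mice and 25%, 23.8%, 22.6%, 25% and 19.1% in WT-TgN3 mice. The WT-TgN3 mice lay close together, while the R182C-TgN3 mice spread on both sides of them. R182C-TgN3 1 was the highest of all and R182C-TgN3 3, with 1 NK cell in 45, the lowest. The means were 16.4% ± 10.1 and 23.1% ± 2.43 (SD; exact permutation test, p = 0.193, adjusted p = 0.482), and the difference within batches 1, 3 and 4 was 2.49, -9.06 and -6.51 percentage points. Leaving out each of the 11 mice in turn gave differences from -10.2 percentage points (without R182C-TgN3 1) to -3.93 (without R182C-TgN3 3). The exact permutation p was 0.00794 without R182C-TgN3 1, and 0.205 to 0.349 in all other runs. These p-values were not adjusted. For B cells, taken with a like gate on Cd79a, Cd79b and Ms4a1, R182C-TgN3 mice had a share of 1.28% ± 1.02 (SD, n = 6) and WT-TgN3 mice one of 0.852% ± 0.522 (SD, n = 5; exact permutation test, p = 0.463), so the sign of the difference was opposite to that of NK cells.

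T cells were then compared with NK cells from the same mice, to see which programmes beyond the gate genes set the classes apart. UMIs were summed per mouse and class in the 5 mice with at least 5 cells of each (R182C-TgN3 1 and 6, and WT-TgN3 2, 3 and 5; 130 T cells with 645827 UMIs and 37 NK cells with 211345 UMIs) and tested with the quasi-likelihood test of edgeR with the mouse as a block. After a filter on low counts, 830 genes were tested, and 174 of them (21%) differed at an adjusted p under 0.05. Of these, 82 (9.88%) were higher in T cells and 92 (11.1%) higher in NK cells, and 155 had the same direction in all 5 mice. For 40 genes (4.82%) every T value lay above every NK value, and for 82 (9.88%) every NK value above every T value. The median log2 difference over all tested genes was near 0, at -0.0032. With as few as 5 cells in a class, low genes were mostly untested, and a gene at 0 in one class entered the test through its level in the other. Without the filter, 428 of 12162 genes differed, 268 of them higher in T cells.

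Several components of the T cell receptor were higher in T cells. Of 17 genes of the receptor complex and its signalling, 9 passed the filter, 5 were higher in T cells (9.88% of all tested genes were) and 0 higher in NK cells, with a median log2 difference of 0.92. A gene near 0 in NK cells, such as Trac, could pass the filter only through T cells. The Cd3 genes, which belong to the same receptor complex, also chose the T cells, so the count and median are a description. Trac, the constant part of the alpha chain, had 190, 228, 301, 249 and 256 CPM in T cells of R182C-TgN3 1 and 6 and WT-TgN3 2, 3 and 5, and 0, 0, 0, 19.5 and 20.6 CPM in their NK cells. Every mouse showed Trac far higher in T cells (edgeR adjusted p = 1.51e-05, in a test it entered through T cells). With 2 UMIs in the NK cells of the 5 mice against 159 in the T cells, the ratio of the summed levels was 26.0 (95% counting interval 7.08 to 217). Trbc2, the second constant gene of the beta chain, was higher by 2.08 on the log2 scale (858 ± 194 CPM against 222 ± 77.2 CPM, mean ± SD, n = 5 mice). Trbc1, the other beta constant gene, had 427 ± 202 and 257 ± 150 CPM and a log2 difference of 0.92 that did not pass the test (adjusted p = 0.182). A Trbc1 UMI was present in 57.5% of T cells and 66.7% of NK cells. Because the beta constant genes are near-identical, the split of reads between them is uncertain. Cd247 (the zeta chain) was higher in T cells by 1.88 and the adaptor Skap1 by 0.74 on the log2 scale. With doublets (barcodes of more than 1 cell) removed by a simulated-doublet score, which left 3 mice in the fit, the Cd247 difference was 1.02 and did not pass (adjusted p = 0.0774). The kinase Lck, with 279 ± 59.4 CPM in T cells and 191 ± 71.6 CPM in NK cells, did not pass (adjusted p = 0.104).

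Themis, which sets the strength of T cell receptor signals during thymic selection, had the largest difference of the genes higher in T cells. Its levels in T cells of the 5 mice were 488, 326, 648, 920 and 804 CPM, and 0 UMIs were seen in the NK cells of any of them, which makes it at least 47.2-fold higher against a floor of 3 UMIs over the NK cells of all 5 mice. Over all 11 mice, 81.4% of T cells and 0 of 51 NK cells had a Themis UMI, which allows a share of NK cells with a UMI of up to 6.98% (exact 95% interval). Other genes that the NK cells of these mice did not show were Cd5 (an inhibitory co-receptor; at least 9.82-fold higher in T cells), Ccr7 (the receptor that guides cells to lymph nodes; at least 11.3-fold), Cd8b1 (at least 12.8-fold) and Cd40lg (the helper ligand; at least 7.64-fold). These 4 genes were below the filter and were not part of the 830.

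Of 10 naive and circulating T cell genes, 5 passed the filter and were higher in T cells (9.88% of all tested genes were), with a median log2 difference of 3.18. A gene near 0 in NK cells could pass the filter only through T cells, so the count is a description. Lef1, a transcription factor of naive T cells, had 369, 531, 879, 595 and 608 CPM in T cells of the 5 mice and 60.2, 29.2, 0, 19.5 and 82.6 CPM in NK cells. Its ranges lay well apart, and the log2 difference was 4.11 (SE 0.46, edgeR adjusted p = 6.9e-06). Il7r, the receptor for the survival cytokine interleukin 7, had 274, 455, 428, 857 and 588 CPM in T cells and 30.1, 0, 0, 58.6 and 186 CPM in NK cells (log2 difference 3.37). Tcf7, the partner factor of Lef1, differed by 3.18, Satb1 (chromatin organiser) by 1.40 and Klf2, which keeps cells in circulation, by 1.11. In the 3 mice left with doublets removed by score, Tcf7 (3.08, adjusted p = 0.0599) and Satb1 (1.04, adjusted p = 0.0705) did not pass, and Satb1 did not pass either in R182C-TgN3 mice alone or against T cells with Cd8. Further genes among the 10 with the largest difference were Gramd3 (4.40), Camk4 (a calcium-dependent kinase, 4.31), Dusp10 (a phosphatase of stress kinases, 4.26), Cmah (3.31), Gpr183 (the oxysterol receptor, 3.25) and Dgka (diacylglycerol kinase alpha, which damps receptor signals, 3.19). Lef1 is also a gene of brain endothelium. A Lef1 UMI was seen in 88.2% of endothelial barcodes, 2.37% of microglial barcodes, 68.1% of T cells and 25.5% of NK cells.

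**Figure D2:**
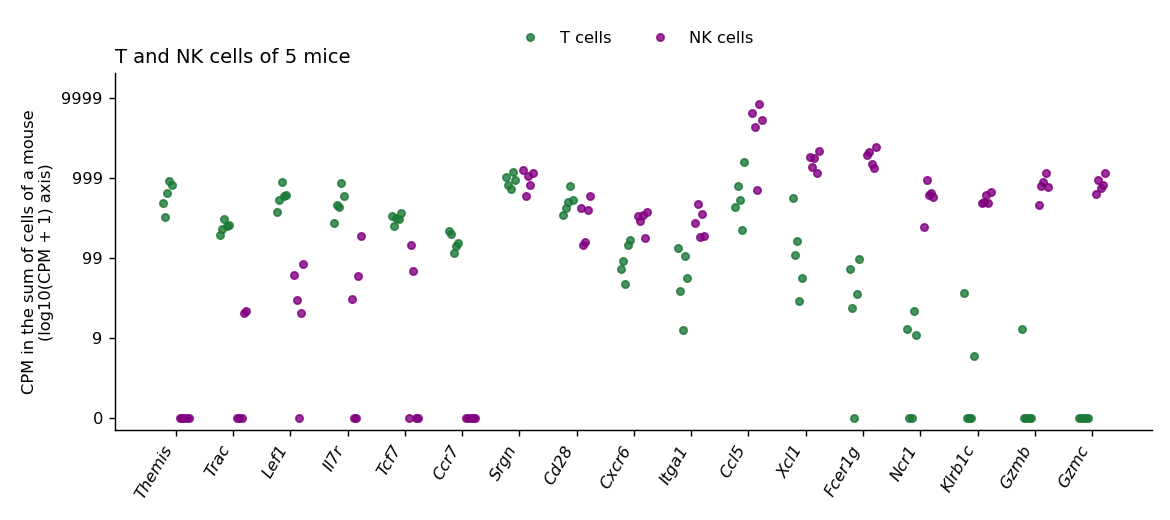
Level of selected genes (x axis) in T cells and NK cells, as CPM in the sum of cells of 1 mouse on a log10(CPM + 1) axis. Each point is 1 of the 5 mice of the comparison. Themis, Trac and Ccr7 lie high in T cells and at or near 0 in NK cells, and the NK receptor and granzyme genes show the reverse. Lef1 and Il7r lie lower in NK cells than in T cells. Cd28 overlaps between the classes, with 345 to 795 CPM in T cells and 146 to 599 CPM in NK cells.

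Genes of NK receptors lay on the other side. Of 25 NK identity genes, 12 passed the filter and were higher in NK cells (11.1% of all tested genes were), with a median log2 difference of -4.47. A gene near 0 in T cells could pass the filter only through NK cells, so that its direction was set by the filter, and the count and median are a description. Ncr1 (NKp46, an activating receptor of NK cells that some other innate lymphoid cells also carry) had 241, 933, 611, 644 and 578 CPM in NK cells of the 5 mice and 11.9, 0, 0, 20.7 and 10.1 CPM in T cells. No mouse came near an overlap, and the log2 difference was -5.67 (SE 0.44, edgeR adjusted p = 3.98e-07). Klrb1c (NK1.1) had 481, 496, 611, 488 and 661 CPM in NK cells and 35.7, 0, 0, 0 and 5.03 CPM in T cells (log2 difference -6.00). The signalling adaptors Fcer1g and Tyrobp, through which NK receptors act, were the most abundant of the group. Fcer1g had 1926, 2100, 1472, 1308 and 2395 CPM in NK cells against 71.4, 22.8, 0, 34.6 and 95.5 CPM in T cells, a log2 difference of -5.14, and Tyrobp differed by -4.90. Styk1, a kinase-like protein of NK cells, had 96 UMIs in NK cells and 3 in T cells (ratio of levels 97.8, 95% counting interval 32.5 to 483). Klra9 (a Ly49 receptor) differed by -5.30, Cd7 by -4.03, Tbx21 (T-bet, the transcription factor of type 1 lymphocytes) by -2.67 and Il2rb (the receptor chain for interleukins 2 and 15) by -2.43. In the mouse genome (GRCm38, mm10, GENCODE positions), the 24 annotated Klra, Klrb, Klrc, Klrd, Klre, Klrh, Klri and Klrk genes all lie on chromosome 6 between 128609227 and 131247362. The 5 that passed the filter (Klra9, Klrb1b, Klrb1c, Klre1 and Klrk1) were higher in NK cells, through which they entered the test, and nothing is read from their common direction. Members of the Klra and Klrb1 families are close copies, and reads may have been split between them.

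Cytotoxic genes were higher in NK cells as well. Of 16 listed, 8 passed the filter and 7 were higher in NK cells (11.1% of all tested genes were), with a median of -2.89, and Srgn (serglycin, the matrix of granules) was level at 936 ± 180 CPM in T cells and 974 ± 278 CPM in NK cells (log2 difference 0.15, adjusted p = 0.675). Gzmb (granzyme B, a protease that starts cell death) had 451, 787, 883, 1132 and 764 CPM in NK cells, and in T cells 11.9 CPM in R182C-TgN3 1 and 0 in the other 4 mice. Gzmc, a granzyme from the same gene cluster, had 632, 933, 747, 800.5 and 1156 CPM in NK cells and 0 in T cells, so it was at least 186-fold higher in NK cells against a floor of 3 UMIs over the T cells of these mice. Gzmb and Gzmc lie in a cluster of 8 genes on chromosome 14 between 55941451 and 56262260. Gzmb, with 1 UMI in T cells and 176 in NK cells of these mice, had a ratio of levels of 538 (95% counting interval 95.3 to 21362). Both passed the test (edgeR adjusted p = 8.09e-08 for Gzmb and 5.41e-07 for Gzmc), which they entered through NK cells. The count and median of the cytotoxic genes are therefore a description too. Gzma, from chromosome 13, did not pass the filter on low counts. It had 2648, 3324, 0, 3397 and 2333 CPM in NK cells and was seen in T cells of WT-TgN3 3 only, at 55.3 CPM. The chemokines Ccl3, Ccl4, Ccl5 and Xcl1, which draw in other leukocytes, differed by -4.10, -3.25, -2.53 and -3.46, the interferon gene Ifng by -2.17 and the protease Ctsw by -2.22. T cells were not devoid of them. Ccl5 had 705 ± 522 CPM in T cells (SD, n = 5) against 5005 ± 2856 CPM in NK cells.

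The 250 bases before the start of 4 genes of the NK group are printed here, with those of Themis. They were chosen after the values were seen. Sequences and starts are those of RefSeq on GRCm38.p6, given 5′ to 3′ on the strand of the gene. Capitals mark the letters TGTGGT, the core of the RUNX motif, and AGGAAGT, of the ETS motif, or their reverse complements ACCACA and ACTTCCT. TCF/LEF (CTTTGA) and T-box (TCACACC) letters were searched on both strands as well and are not in these 5 windows. The windows are Ncr1 chr7:4337465-4337714 (+ strand), Klrb1c chr6:128788642-128788891 (- strand), Gzmb chr14:56262335-56262584 (- strand), Gzmc chr14:56234658-56234907 (- strand) and Themis chr10:28668110-28668359 (+ strand).
Ncr1: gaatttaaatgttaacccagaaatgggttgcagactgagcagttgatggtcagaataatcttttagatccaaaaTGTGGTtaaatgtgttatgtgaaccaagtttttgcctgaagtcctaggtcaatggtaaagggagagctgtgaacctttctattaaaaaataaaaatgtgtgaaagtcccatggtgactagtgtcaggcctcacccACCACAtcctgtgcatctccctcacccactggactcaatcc
Klrb1c: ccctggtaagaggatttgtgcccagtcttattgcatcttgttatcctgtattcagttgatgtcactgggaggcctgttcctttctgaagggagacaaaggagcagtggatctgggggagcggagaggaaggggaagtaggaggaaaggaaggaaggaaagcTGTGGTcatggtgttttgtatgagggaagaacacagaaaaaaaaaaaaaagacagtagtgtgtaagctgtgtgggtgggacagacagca
Gzmb: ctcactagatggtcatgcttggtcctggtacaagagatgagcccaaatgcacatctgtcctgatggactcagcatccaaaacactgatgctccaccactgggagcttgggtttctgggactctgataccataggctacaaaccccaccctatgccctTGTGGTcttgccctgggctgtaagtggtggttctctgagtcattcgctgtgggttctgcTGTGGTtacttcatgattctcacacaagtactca
Gzmc: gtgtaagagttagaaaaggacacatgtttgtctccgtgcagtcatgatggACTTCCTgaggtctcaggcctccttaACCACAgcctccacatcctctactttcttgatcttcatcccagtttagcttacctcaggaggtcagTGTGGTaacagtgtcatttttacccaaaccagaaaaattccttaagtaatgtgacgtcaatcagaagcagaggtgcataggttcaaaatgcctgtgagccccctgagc
Themis: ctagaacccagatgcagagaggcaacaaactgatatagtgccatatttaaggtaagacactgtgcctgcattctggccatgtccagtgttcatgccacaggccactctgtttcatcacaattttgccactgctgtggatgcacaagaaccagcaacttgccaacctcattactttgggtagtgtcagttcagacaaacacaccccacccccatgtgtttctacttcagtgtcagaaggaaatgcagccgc
The RUNX letters stood 176 and 41 bases before the start of Ncr1, 89 bases before that of Klrb1c, 93 and 34 bases before that of Gzmb, and 174 and 108 bases before that of Gzmc. The Gzmc window also held the ETS letters at 200 bases before the start, and no motif overlapped another. Windows of other genes were read as well and are not printed. That of Fcer1g, also of the NK group, held 0 RUNX, T-box, TCF/LEF and ETS stretches. Among T-cell genes, Cd3d held 2 TCF/LEF stretches and 1 ETS stretch and Il7r held 1 ETS stretch, while Cd3g and Tcf7 held 0. The printed windows therefore do not stand for their groups. Over all genes higher in NK cells with a RefSeq start, 21.3% of 89 promoters of 71 genes held the RUNX letters, against 10.7% of 103 promoters of 67 genes higher in T cells, 9.70% of 866 promoters of tested genes and 14.0% of all 32851 promoters of this length. For the ETS letters the shares were 13.5%, 10.7%, 9.47% and 7.69%, for TCF/LEF 11.2%, 12.6%, 9.12% and 13.8%, and for T-box 2.25%, 4.85%, 2.89% and 3.33%. These are shares of windows with the letters, given without a test.

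Residency genes, which keep lymphocytes in tissue, were on the side of NK cells in 4 of 5 cases tested out of 10 listed (median -1.81; 11.1% of all tested genes were higher in NK cells). Itga1 (CD49a, a collagen receptor) had 271, 467, 181, 351 and 186 CPM in NK cells and 131, 37.9, 11.6, 104 and 55.3 CPM in T cells, so all NK values lay above all T values. The log2 difference was -1.93 (SE 0.37, edgeR adjusted p = 0.00142). Cxcr6, the receptor for the chemokine CXCL16, had 331, 292, 340, 176 and 372 CPM in NK cells and 71.4, 91.0, 46.3, 145 and 166 CPM in T cells (log2 difference -1.28, adjusted p = 0.0128). The Cxcr6 call was not stable. It was lost without WT-TgN3 2 (-1.03), without the filter on low counts (-1.01), in R182C-TgN3 mice alone (-1.54), in WT-TgN3 mice alone (-1.12) and with doublets removed by score, where 3 mice were left (-0.56, adjusted p = 0.423). Rgs1 and Rgs2, which damp chemokine receptor signals, differed by -2.49 and -1.81, and Rgs2 did not pass with doublets removed by score (-1.17, adjusted p = 0.181). Cd69, the early activation and retention marker, had 429 ± 71.3 CPM in T cells and 340 ± 262 CPM in NK cells (log2 difference 0.67, adjusted p = 0.254). Itga1 is abundant in brain endothelium, with a UMI in 85.2% of endothelial barcodes, 51.0% of NK cells, 13.7% of T cells and 2.09% of microglial barcodes. Cxcr6 was not, with 0.575% of endothelial barcodes, 52.9% of NK cells and 27.4% of T cells.

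Adhesion, checkpoint, interferon, proliferation and stress genes differed little between the classes. Of 15 adhesion and chemokine receptor genes, 5 were tested and 1 differed, a share near that of all tested genes (21%). It was Cd226 (DNAM-1, an activating adhesion receptor), which was higher in NK cells with 632, 496, 498, 429.5 and 413 CPM against 167, 75.8, 139, 290 and 226 CPM in T cells (log2 difference -1.27, adjusted p = 0.00519). It did not pass in WT-TgN3 mice alone (-0.89), with doublets removed by score (-1.02), in cells with 0 UMIs of Cldn5, Flt1, P2ry12 and Cx3cr1 (-1.08) or against T cells with Cd8 (-0.99). The integrin genes Itgal and Itga4 differed by -0.76 and 0.86 and did not pass. Of 8 checkpoint genes, 2 were tested and Nr4a2, a transcription factor induced by receptor signals, was higher in NK cells (log2 difference -1.23, adjusted p = 0.0098). The Nr4a2 call was lost without WT-TgN3 5 (-1.14), in R182C-TgN3 mice alone (-0.90), with doublets removed by score (-0.92), against T cells with Cd8 (-0.45) and with at least 3 cells of each class (-0.69). Of 14 genes that respond to tissue digestion, 12 were tested, Jun was higher in NK cells (-0.76, adjusted p = 0.0158) and the other 11 did not pass (median over the 12, -0.08). The Jun call was lost under 7 alternatives, among them without WT-TgN3 2 (-0.61), without WT-TgN3 5 (-0.59) and in R182C-TgN3 mice alone (-0.29). Of 20 interferon response genes and 14 proliferation genes, 1 and 2 were tested and 0 passed. Genes of the CD8, CD4 helper, gamma-delta and innate lymphoid lists did not pass the filter.

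**Figure D3:**
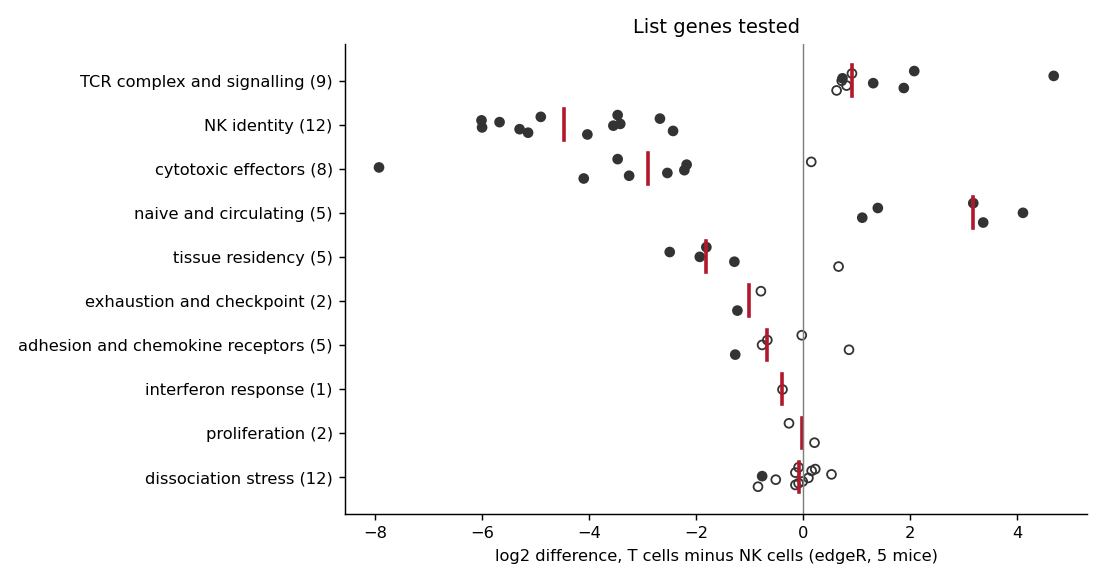
Log2 difference of T cells minus NK cells (x axis, edgeR, 5 mice) for each tested gene of the lists (y axis, number tested in brackets). Receptor and naive genes lie to the right of 0, NK identity, cytotoxic and most residency genes to the left, and stress genes around 0.

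Ribosomal protein genes, which were kept out of the 830, also set the classes apart. When they and other left-out genes were added, 984 genes were tested, 67 of 80 ribosomal protein genes were higher in T cells and 0 higher in NK cells. Over all 984 genes, 290 differed in either direction, and without the gate genes 161 of 979 were higher in T cells. The median log2 difference of the ribosomal protein genes was 0.69, against -0.02 over all 984 genes.

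The 6 mice with fewer than 5 T or NK cells took no part in the fit and were pooled to look at the same genes (96 T cells and 14 NK cells). Of the 174 genes called, 156 (89.7%) had the same direction there, 67 of 82 for T cells and 89 of 92 for NK cells, against 424 of 656 genes that were not called (64.6%). Themis had 802 CPM in T cells and 0 in NK cells of these mice, and Ncr1 19.7 and 818 CPM. Lef1 had 820 and 97.0 CPM, and Fcer1g 41.4 and 1497 CPM. Gzmb, at 23.6 and 443 CPM, and Gzma, at 0 and 1732 CPM, were again on the NK side. Gzmc was an exception in size. Its level in NK cells of these mice was 27.7 CPM, from 2 UMIs, below all 5 mice of the fit.

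The T cells themselves fell into cells with CD8 and cells with CD4 transcripts. A UMI of Cd8a or Cd8b1, which code the co-receptor of cytotoxic T cells, was found in 87 of 226 T cells (38.5%, exact 95% interval 32.1% to 45.2%), and a Cd4 UMI, the co-receptor of helper cells, in 56 (24.8%, 19.3% to 30.9%). Not one T cell had both (0 of 226, which allows a share of up to 1.62% by the exact 95% interval), and 83 had neither. Such UMIs were rare in other cells, with Cd8b1 in 0.0594% and Cd4 in 0.213% of endothelial barcodes. T cells with Cd8 UMIs had a median of 5613 UMIs, those with Cd4 4577 and those with neither 4344. The number with Cd8 was 6 of 12, 9 of 16, 19 of 44, 3 of 9, 3 of 7 and 9 of 26 in R182C-TgN3 mice 1 to 6 and 5 of 11, 4 of 16, 8 of 40, 8 of 9 and 13 of 36 in WT-TgN3 mice 1 to 5. WT-TgN3 4 had the highest share and WT-TgN3 3 the lowest, so the WT-TgN3 mice enclosed the R182C-TgN3 mice. With all T cells thinned to 1000 UMIs, 19.5% ± 11.4 (SD, n = 6) and 23.3% ± 19.4 (SD, n = 5) of T cells had a Cd8 UMI (exact permutation test, p = 0.716, adjusted p = 0.721; -9.72, -3.22 and 7.88 percentage points within batches 1, 3 and 4), and without thinning 43.4% ± 8.80 and 43.1% ± 27.4.

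The other genes of cells with Cd8 and with Cd4 are given as counts of cells because the same cells were sorted by their own UMIs. Cd40lg, the helper ligand for B cells, was found in 24 of 56 Cd4 cells and 1 of 87 Cd8 cells. Nkg7 was found in 64 of the Cd8 cells and 4 of the Cd4 cells, Klrd1 in 45 and 5, Ccl5 in 36 and 6, and Ly6c2, a surface protein of memory CD8 cells, in 31 and 1. Because Nkg7 and Klrd1 belong to the gate, a cell with Cd8 could enter with fewer Cd3 UMIs. Ccr7 was found in both kinds, in 39 and 25 cells. Foxp3, the factor of regulatory T cells, was seen in 4 T cells.

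A UMI of a gamma or delta receptor chain was found in 30 T cells (13.3%, exact 95% interval 9.14% to 18.4%) of 8 mice, and 15 of them, from 5 mice, had neither Cd8 nor Cd4. In these 15, Cxcr6 was found in 12 and Cd44, an adhesion receptor of activated cells, in 13, while Ccr7 was found in 0. Il1r1 (the interleukin 1 receptor) was found in 8, Il23r (the interleukin 23 receptor) in 6 and Il17a, the type 17 cytokine, in 2. In the 87 Cd8 cells Il1r1, Il23r and Il17a were at 0. The CPM of Cxcr6 was 621 in these gamma or delta cells, 104 in Cd8 cells and 39.0 in Cd4 cells, and that of Cd44 451, 76.3 and 99.2. Il23r was not spread evenly, since its 32 UMIs came from 11 T cells of 2 WT-TgN3 mice, 24 of the UMIs in WT-TgN3 3.

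**Figure D4:**
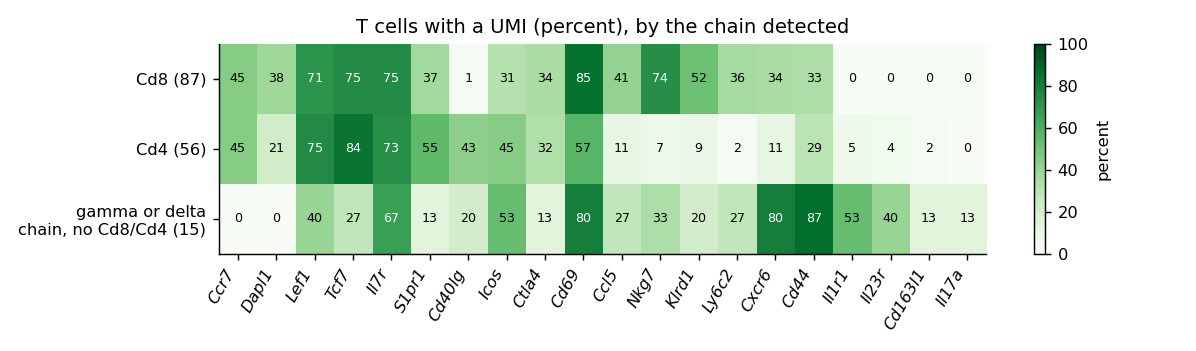
Percent of T cells with a UMI of each gene (x axis) among cells with Cd8 UMIs, cells with Cd4 UMIs and gamma or delta chain cells with neither (y axis, number of cells in brackets), shown as shade and number. Nkg7, Klrd1 and Ccl5 are frequent in Cd8 cells, Cd40lg in Cd4 cells, and Cxcr6, Cd44 and Il23r in gamma or delta chain cells.

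The NK cells were not alike either. Of 51 NK cells, 94.1% had an Ncr1 UMI, 86.3% a Klrb1c UMI and 98.0% a Tyrobp UMI, so the receptors of the class were shared, but the granzymes were not. Gzma was found in 17 cells (33.3%), Gzmb in 28 and Gzmc in 14. Itga1 or Cxcr6 was found in 31, of which 3 also had Gzma; 14 had Gzma alone, and 6 had neither. Itga1 and Cxcr6 went together, with 22 cells showing both, 4 Itga1 alone and 5 Cxcr6 alone. Gzma and Gzmc shared 1 cell, with 16 cells showing Gzma alone and 13 Gzmc alone. Gzma was seen in 0.0486% of endothelial and 0.0550% of microglial barcodes.

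Several genes known from circulating NK cells were found with Gzma. The split and the genes given were chosen after the values were seen, and no test was made. The 17 cells with Gzma had a lower depth (median 3755 UMIs) than the 34 without (5784 UMIs). In spite of this, Itga2 (CD49b) was found in 13 of 17 against 4 of 34, Eomes (the transcription factor of mature NK cells) in 9 against 1, Prf1 (perforin) in 16 against 11, and Klrg1, a receptor of mature NK cells, in 6 against 0. The Ly49 receptor Klra8 was found in 7 against 1, S1pr5, needed for exit from bone marrow and lymph nodes, in 4 against 0, and the protease Cma1 in 6 against 0. On the other side, Itga1 was found in 3 of 17 against 23 of 34, Cxcr6 in 1 against 26, Cd69 in 5 against 23, Gzmc in 1 against 13 and Tmem176b in 2 against 18. Inpp4b, a phosphatase of lipid signals, was found in 5 against 34 and so in every cell without Gzma. The chemokine Xcl1 stood at 803 CPM in cells with Gzma and 2502 CPM in those without, and Ccl5 at 11444 and 2550 CPM. Ncr1 was found in 17 and 31 cells. Both kinds occurred in both genotypes. Cells with Gzma numbered 2 of 6, 1 of 3, 1 of 1, 0 of 2, 0 of 1 and 3 of 5 in R182C-TgN3 mice and 2 of 4, 0 of 5, 7 of 12, 0 of 3 and 1 of 9 in WT-TgN3 mice, 7 of 18 and 10 of 33 in all. Inpp4b is a gene of microglia, with a UMI in 90.5% of microglial barcodes and 92.5% of T cells.

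**Figure D5:**
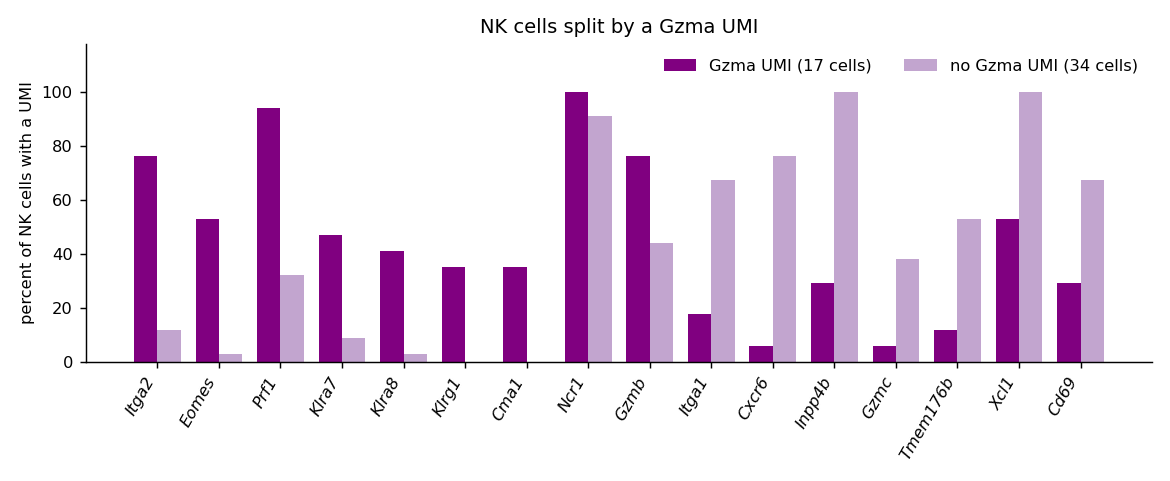
Percent of NK cells with a UMI of each gene (y axis) among the 17 NK cells with a Gzma UMI and the 34 without (x axis, genes). Itga2, Eomes, Prf1 and Klrg1 are more frequent in the cells with Gzma, and Itga1, Cxcr6, Inpp4b, Cd69 and Gzmc in the cells without.

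Kcnj8, a potassium channel gene best known from brain pericytes, was found in 13 of 51 NK cells (25.5%, exact 95% interval 14.3% to 39.6%) and 6 of 226 T cells (2.65%), against 1.05% of endothelial barcodes. It was picked out after its values were seen. The mural genes beside it came from 1 NK cell, as given above.

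Compared with the B cells of the same preparation, the other lymphocytes taken from these libraries, T and NK cells stood apart in receptor signalling, cytotoxic and adhesion genes. In the 9 mice with at least 10 cells of each, 2609 genes were tested and 1243 differed (47.6%), of which 611 (23.4%) were higher in T and NK cells and 632 (24.2%) higher in B cells. Ccl5 had the largest difference on the side of T and NK cells, with 582 CPM in the lowest mouse, a median of 1904 and 3655 in the highest, against 0 in the B cells of all 9 mice. Trbc2 (492, 763 and 1161 CPM) and Themis (259, 619 and 868 CPM) were at 0 in B cells too. B cells had Ly6d at 1078, 1679 and 1950 CPM and Pax5, the B-cell transcription factor, at 493.4, 679 and 980 CPM, where T and NK cells had 0. Of the T cell receptor genes, 12 of 13 tested were higher in T and NK cells, of the cytotoxic genes 6 of 7 and of the adhesion genes 7 of 8. A gene at 0 in B cells could pass the filter only through T and NK cells. Cd226, one of the adhesion genes, had 259 ± 62.1 CPM in T and NK cells (SD, n = 9) and 0 UMIs in B cells. Others were Itgb1 (2.88 on the log2 scale), Selplg (the selectin ligand, 2.37), Itgal (2.30) and Itgb2 (2.07). Cxcr4, the receptor for CXCL12, was the adhesion gene lower in T and NK cells (-2.14). Of 6 NK identity genes tested, 5 were higher and Irf8, also a B-cell factor, was lower (-2.39). Among the naive genes Lef1, Tcf7 and Il7r were higher (4.43, 7.31 and 5.93) and Ccr7 and Klf2 lower (-1.41 and -1.02).

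The genotypes were compared last, to see whether T and NK cells of CADASIL mice differed in expression. In T and NK cells together (5 mice of each genotype with at least 10 cells), 0 of 1803 genes passed an adjusted p under 0.05 with edgeR (0%), 62 (3.44%) had an unadjusted p under 0.05, and DESeq2 called 0 with 41 at an unadjusted p under 0.05. In T cells (4 mice of each genotype) it was 0 of 1525 with 57 (3.74%) unadjusted and 0 by DESeq2 with 22 unadjusted. In NK cells (2 R182C-TgN3 and 3 WT-TgN3 mice) it was 0 of 584 with 20 (3.42%) unadjusted and 0 by DESeq2 with 7. Without R182C-TgN3 6, which left 1 R182C-TgN3 mouse assumed to vary like the others, 7 genes of NK cells passed, among them Setbp1 and Ccnd2. Counts were also simulated at the mean levels of these T and NK cells. There the same fit called 41.0% of genes changed by 2-fold and 98.4% of those changed by 4-fold. The simulation gave every gene the same spread between mice, and that spread was not taken from these cells. The shares therefore do not show how many real changes of these sizes would be called.

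No gene passed, and the genes of smallest p in T cells are given as values. Xcl1 had 560, 305, 144 and 106 CPM in T cells of R182C-TgN3 mice 1, 2, 3 and 6 and 26.2, 162, 27.7 and 55.3 CPM in WT-TgN3 mice 1, 2, 3 and 5 (log2 difference 2.02, SE 0.52, edgeR adjusted p = 0.667). Without WT-TgN3 2 it was the 1 gene that passed, with a log2 difference of 2.81. Of the 47 Xcl1 UMIs in R182C-TgN3 1, 45 were in 1 cell. Ccl4 had 452, 877, 256 and 258 CPM and 52.5, 116, 111 and 307 CPM (log2 difference 1.49, adjusted p = 0.667), and 59 of 92 UMIs in R182C-TgN3 2 came from 1 cell. St6gal1, a sialyltransferase, had 23.8, 85.8, 126 and 68.3 CPM and 420, 139, 270 and 181 CPM, so its genotypes did not overlap (log2 difference -1.33, adjusted p = 0.667). Il18r1, the receptor for interleukin 18, had 159 to 179 CPM in the R182C-TgN3 mice and 150 to 615 CPM in the WT-TgN3 mice (adjusted p = 0.982).

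In T and NK cells together the genes of smallest p were Ctla2a, Gzmb, Pde3b, Raly and Samd9l (each with an adjusted p of 0.999). Gzmb had 90.7 ± 58.5 CPM in the R182C-TgN3 mice and 227 ± 65.7 CPM in the WT-TgN3 mice (SD, n = 5 each; log2 difference -1.26). It was found in 14 of 124 cells and 20 of 149 cells, and the share of NK cells among them, given above, had the same sign of difference. Its part in the Gzmb value was not tested. Raly, an RNA-binding protein, had 84.3 to 120 CPM in one genotype (R182C-TgN3) and 36.7 to 74.6 CPM in the other, and Samd9l, an interferon-induced gene, 50.3 to 93.8 CPM and 104 to 231 CPM, so the ranges of both were apart. In NK cells the 5 genes were Celf2, Lpp, Setbp1, Parp8 and Ccnd2, with adjusted p near 1. By list, the median log2 difference of R182C-TgN3 minus WT-TgN3 in T and NK cells was -0.47 over 13 NK identity genes, 0.32 over 9 naive genes, -0.12 over 10 cytotoxic genes and -0.02 over 14 receptor genes, beside -0.0012 over all 1803, and 0 genes of any list passed.

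Without a filter on low counts, 9 genes of T and NK cells passed, and apart from Ctla2a (90 cells of 10 mice) their UMIs lay mostly in single cells or in 1 or 2 mice. All 83 H2-Eb1 UMIs came from 1 cell of WT-TgN3 3, one of the 4 with a single Cd3 UMI and so in neither class (1 Cd3d and 5 Klrd1 UMIs). It also held 80 of 96 Cd74 UMIs, 65 of 68 H2-Aa UMIs and 53 of 55 H2-Ab1 UMIs, genes of antigen presentation in B cells and myeloid cells. Of 90 Hspb1 UMIs, 72 were in 1 cell of R182C-TgN3 1. The pituitary hormone genes Gh and Prl were found in WT-TgN3 5 only, with 55 and 25 UMIs in 28 and 19 cells.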

How the data were processed

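The authors isolated CD31-bound vessel fragments from mouse brain, made 10x Genomics 3′ libraries and aligned them with Cell Ranger 7.0.0 to mm10 with human NOTCH3 added, as the study's methods and the submitters' processing notes state. The deposited files hold raw UMI counts per gene (32287 features) and barcode, without replicates pooled and without normalization. Ambient RNA had not been removed, and 0 value columns were left unmapped.

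Cells were chosen by UMI counts as the report gives, and the members and gene lists were chosen with earlier results of these data known. Mice were the replicates. Counts were summed per mouse and class and tested with edgeR 4.0.16 (TMM, filterByExpr, quasi-likelihood, Benjamini-Hochberg adjustment over all tested genes, threshold 0.05) in R 4.3.3. The mouse was a block in comparisons of classes, which needed at least 5 cells of each (T against NK) or 10 (against B cells). Genotype fits needed 10 cells, or 5 for NK cells. DESeq2 1.42.0 was an alternative. As the authors did, ribosomal, mt-, Gm and Rik genes were dropped, and the 10 gate genes were not tested. Log2 differences are first minus second class, or R182C-TgN3 minus WT-TgN3. CPM are counts divided by the class total. Shares were compared by 2-sided exact permutation tests (SciPy 1.17.1). Exact binomial 95% intervals cover counting error only. Thinning to 1000 UMIs left out 0 T and 0 NK cells.

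Named genes were the gate genes, up to 4 of smallest adjusted p in each list, all members of counts of 5 or fewer, and the 10 largest called differences each way with the same direction in every mouse, or the 5 of smallest p where fewer than 3 passed. Genes named beyond that are described as values and were chosen after their values were seen. The scripts were tested on simulated data. In the T against NK design (886 genes) 46.4% of 2-fold and 98.5% of 4-fold changes were called. The simulated spread was the same for every gene and was not taken from these data. Doublets were not removed from the results, since a simulated-doublet score took out 32 of 281 cells, 17 of 18 in R182C-TgN3 1 (alternative only). Alternatives covered normalization, filters, gates, depth, batch, sex, pairing and single mice, and 2 were added after the data were seen. The values of some listed genes are not reported here.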

Additional observations from a re-analysis of the deposited data

Results flagged for a closer look

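The Igf1r level in T cells of R182C-TgN3 3 was 106.97 CPM, far from the other R182C-TgN3 mice (47.6, 57.2 and 53.1 CPM), and the Ctla2a level in T and NK cells of WT-TgN3 4 was 647.9 CPM, far from the other 4 WT-TgN3 mice, the lowest of which had 134 CPM. They were 2 of 32 groups of mice checked for a sample that stands apart, and chance gives about 1 in 20.

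Outside the comparisons, 21 T cells of WT-TgN3 5 had a UMI of Gh, a pituitary hormone gene, against 0 T cells in the other 10 mice. Over all mice, 6.30% of endothelial barcodes had a Gh UMI. Its source was not tested.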

How the results depend on the processing

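No gene called between T and NK cells changed sign under any alternative, but the number called depended on the settings, from 174 to 428 of 12162 without the filter on low counts (268 higher in T cells), 285 with ribosomal and other left-out genes, 99 in R182C-TgN3 mice alone, 97 with T cells limited to those with Cd8, 74 in cells with 0 UMIs of Cldn5, Flt1, P2ry12 and Cx3cr1, and 22 of 66 with cells thinned to 1000 UMIs. Leaving out single mice gave 133 to 172, and DESeq2 126. Against B cells, 2311 genes were called without the filter, 762 in the strict cells and 1067 to 1266 without single mice. Between genotypes without the filter, 9 genes were called in T and NK cells, 8 in T cells and 13 in NK cells, and without single mice 0 to 1 in T cells and 0 to 7 in NK cells (7 without R182C-TgN3 6, 2 without R182C-TgN3 1). Among the 13 genes of NK cells without the filter, Myh11 had 70 of 71 UMIs, Tagln 45 of 45 and Dmd 44 of 44 in 1 cell of WT-TgN3 3. Bbs9 and Trf were seen in 7 and 11 cells. Among the 8 genes of T cells, Hspb1 had 72 of 88 UMIs and Cald1 44 of 60 in 1 cell of R182C-TgN3 1, while Xcl1, Ccl4 and Irs2 were seen in 8 mice. The fewer cells and genes of the smaller fits are part of their construction, and the other causes were not tested.

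The difference in NK-cell share was -0.0195 in the strict cells, -0.0149 after thinning and -0.0727 to -0.0439 without single mice. The T-cell share changed sign after thinning (0.00697) and ranged from -0.105 to 0.0220 without single mice. NK cells among T and NK cells differed by 1.72 points in the strict cells, -10.3 with doublets removed by score (exact permutation p = 0.0159), and -10.2 to -3.93 without single mice. The score took out 17 of 18 T and NK cells of R182C-TgN3 1 and 7 of 11 of R182C-TgN3 4. Both mice then had too few cells and dropped out of that test, so it overlaps with the run without R182C-TgN3 1. The Cd8 share of T cells differed by 0.282 without thinning, 1.12 at 2000 UMIs and -7.82 to 4.19 without single mice. Of the values of named genes in T against NK cells under these alternatives, 606 kept their side of the threshold, 29 lost and 13 gained the call, and all 340 against B cells kept theirs. Among genes that did not pass between T and NK cells, Atf3 changed sign in R182C-TgN3 mice alone (0.66), Hmgb2 in WT-TgN3 mice alone (-0.032) and without R182C-TgN3 6 (-0.032 to 0.48 without single mice), and Tubb5 without the filter (0.050), with doublets removed (0.31) and without WT-TgN3 2 (-0.44 to 0.044 without single mice).

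Replicate numbers of the same age are shared by the genotypes. Deviations from the group means of same-numbered mice correlated at -0.201 to 0.0646, so the numbers were not taken as pairs. With the replicate number as a block, the shares of T and NK cells together, of T cells and of NK cells differed by -0.174, -0.105 and -0.0555, each lower in 5 of 5 pairs (exact permutation p = 0.0625, the smallest that 5 pairs can give). With that block, 5 genes were called in T cells of 4 mice; T and NK cells together kept 0. The comparisons with at least 10 T and 10 NK cells in a mouse and of NK cells with this block were not run, for want of mice.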
